A study of Mus musculus with 4 samples.

Results

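The 6 transcription regulators Spi1, Gfi1, Runx1, Myb, Ikzf1 and Satb1 were examined in hematopoietic progenitors of mouse bone marrow. They were found by their gene symbols, each of which names 1 of the 27998 genes in the count tables, so that 6 of 6 were measured. Each was followed across progenitor types that were gated on other marker genes, and between Nup358 knockout and control cells.

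These factors bias uncommitted progenitors toward one blood lineage or another. PU.1, the ETS-family protein encoded by Spi1, is needed for myeloid and lymphoid cells and opposes the erythroid factor GATA1, and the zinc-finger repressor GFI1 favours granulocytes over monocytes. RUNX1 acts in definitive stem cells and megakaryocytes, MYB keeps progenitors cycling and is highest in immature cells, IKAROS (Ikzf1) primes lymphoid cells, and SATB1 organizes chromatin in early lymphoid cells.

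The libraries hold LSK cells, the Lin-Sca1+cKit+ fraction of bone marrow that contains stem cells and multipotent progenitors. Controls were Nup358 fl/fl mice, which the labels call wild-type, and knockouts were Nup358 fl/fl mice that also carry R26-CreERT2, a Cre recombinase that is present in all tissues and becomes active with tamoxifen, so that Nup358 was lost outside the marrow as well. The mice were 9 to 12 weeks old, and each of the 2 control and 2 knockout libraries was pooled from 3 mice. Each captured molecule was counted once at its 3′ end, as a unique molecular identifier (UMI). In its marrow experiments the study describes tamoxifen for mice of both genotypes, and it does not state the treatment separately for these libraries. The controls carried no Cre, so the presence of Cre and the loss of Nup358 cannot be told apart. How many days after tamoxifen these cells were sorted is not stated for the libraries. Mice that lost Nup358 in every tissue fell ill in the intestine within days of tamoxifen, which limited how long their marrow could be followed.

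Many barcodes in these libraries were repeats. Of the 25242 deposited barcodes, 10936 (43.3%) shared their sequence with a barcode of another library that was at least 3 times as deep, from 14.8% of the barcodes in control replicate 1 to 81.8% in control replicate 2, and these were left out. The 14041 cells kept held 59033602 and 18846887 UMIs in the controls, in order of replicate, and 32736147 and 53844729 in the knockouts. Control replicate 1 was the shallowest per cell, with a median of 6251 UMIs against 13175.5 to 17707 in the others. Levels are given as CPM, the UMIs of a gene scaled to a fixed total of UMIs per library and type. Ranbp2, the gene of Nup358, was at 127 and 101 CPM in controls and at 124 and 126 CPM in knockouts, and a count at the 3′ end does not show whether the floxed part was lost.

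Types were set by gates on 62 marker genes that hold none of the 6 factors. A cell entered a lineage gate when at least 2 markers of its list were detected and the list made up a minimum share of its UMIs. The stem gate asked for at least 4 of its markers in a cell that entered no lineage gate. The gates held 3027 neutrophil, 343 monocyte-DC, 404 megakaryocyte, 282 erythroid, 418 lymphoid-primed, 490 B, 99 basophil-mast, 71 plasmacytoid-DC and 2661 stem cells, and the remaining cells were in no gate. A cell that passed more than 1 lineage gate, as 1174 cells did, was given to the one whose minimum it exceeded most. No doublet caller was run, so a barcode that held a pair of cells could remain. Another lineage gate was also passed by 56 of the 71 plasmacytoid-DC-gated, 143 of the 490 B-gated, 36 of the 99 basophil-mast-gated, 114 of the 343 monocyte-DC-gated and 716 of the 3027 neutrophil-gated cells, and the part of doublets in the levels of these gates was not tested. A gate is a cut on a score rather than a cell type. Within 25% of the cut, or with 3 or 4 markers for the stem gate, lay 1101 cells for the neutrophil gate, 795 for the monocyte-DC gate and 4552 for the stem gate. Kit, which the sort selects for, was 25.7 to 51.2 CPM in B-gated cells against 69.9 to 116 in cells in no gate, and lower in each library. In plasmacytoid-DC-gated cells it was 17.4 CPM in knockout replicate 1 and 78.3 in knockout replicate 2.

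For each library the UMIs of a type were summed, and CPM values below refer to these sums. Types were compared within libraries with edgeR's quasi-likelihood test against the cells in no gate, and p-values were adjusted over all 11297 genes tested. All 6 factors differed across types in the test over all types (largest adjusted p = 7.5e-07, for Runx1). This is read against a background in which 68% of all genes tested passed the same test.

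**Figure D1:**
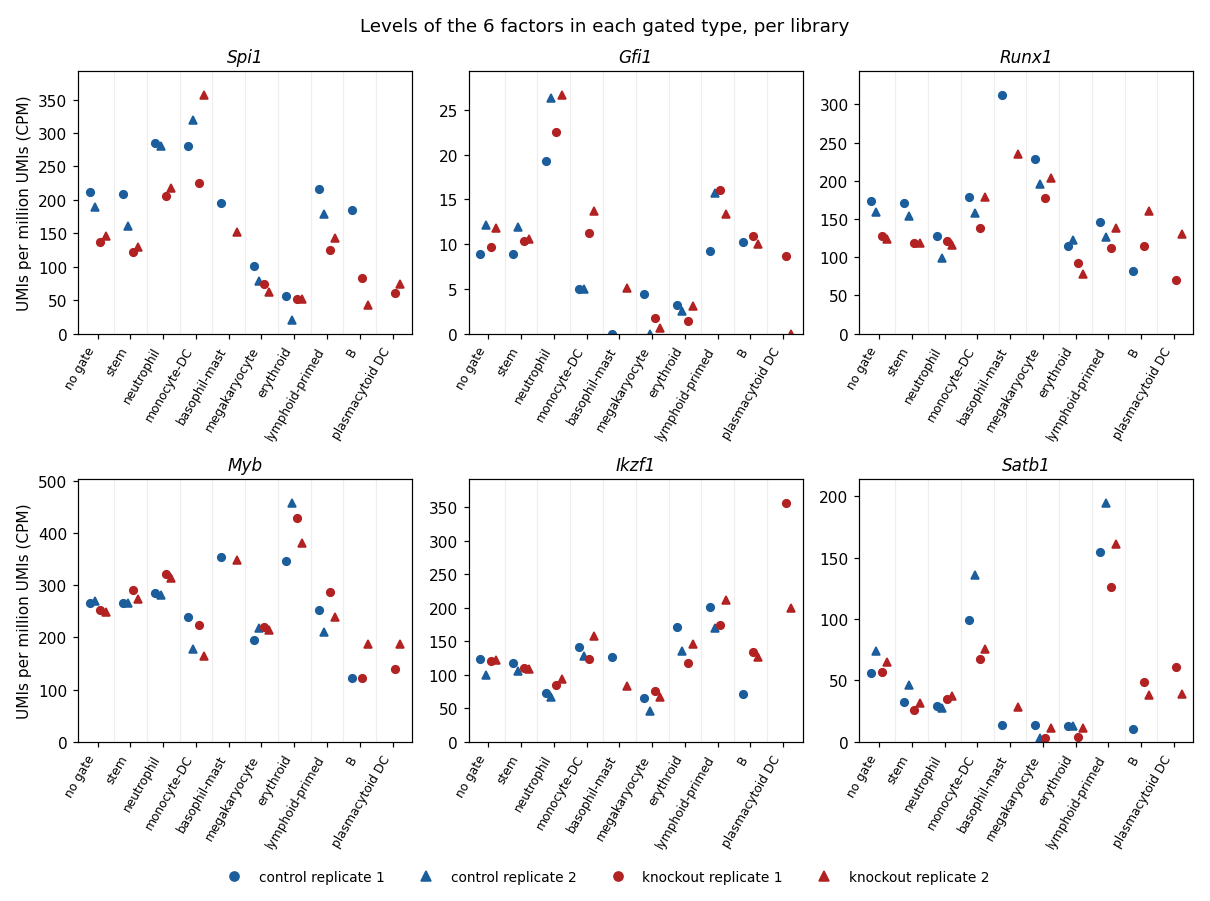
Level of each factor (CPM, linear axis from 0) in each gated type, with 1 point per library for control and knockout replicates 1 and 2. Types with under 20 cells in a library are not drawn. Spi1 is high in neutrophil-gated and monocyte-DC-gated cells, Gfi1 in neutrophil-gated cells, Satb1 in lymphoid-primed cells and Myb in erythroid-gated cells.

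Spi1 (ENSMUSG00000002111) lies on chromosome 2 from 91082390 to 91115756 on the plus strand (GRCm38). In neutrophil-gated cells its level was 286 and 281 CPM in controls (replicate 1, then 2) and 206 and 217 CPM in knockouts. In monocyte-DC-gated cells it was 280 and 319 CPM in controls and 226 and 357 CPM in knockouts. Cells in no gate had 212, 189, 137 and 147 CPM in the same order, so both myeloid gates lay higher than the cells in no gate within each of the 4 libraries. The fold over the cells in no gate was 0.65 on the log2 scale (SE 0.14, edgeR adjusted p = 0.000224) in the neutrophil gate and 0.71 (SE 0.16, edgeR adjusted p = 0.00221) in the monocyte-DC gate. Between the myeloid gates no difference was detected (log2 -0.06, SE 0.16, edgeR adjusted p = 0.87).

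On the megakaryocyte and erythroid side Spi1 was low. Megakaryocyte-gated cells had 101 and 78.3 CPM in controls and 73.9 and 62.6 CPM in knockouts. Erythroid-gated cells had 56.0 and 20.1 CPM in controls and 51.7 and 51.5 CPM in knockouts. Every one of these 8 sums lay below every sum of the cells in no gate. Spi1 fell by 1.18 on the log2 scale (SE 0.17, edgeR adjusted p = 2.3e-06) in the megakaryocyte gate and by 1.78 (SE 0.18, edgeR adjusted p = 7.8e-10) in the erythroid gate. It also fell by 1.16 (SE 0.21, edgeR adjusted p = 3.3e-05) in the B gate, where control replicate 1 had 184 CPM and the knockouts 83.8 and 42.8 CPM. In plasmacytoid-DC-gated cells, which only the knockout libraries held in number, it was 60.9 and 74.0 CPM (log2 -1.22, SE 0.36, edgeR adjusted p = 0.019). That gate rests on 24 Spi1 UMIs, and there the median over all genes was itself shifted by -0.16. The call was lost without knockout replicate 1 (log2 -1.21) or knockout replicate 2 (log2 -1.42), and with thinned gates (log2 -0.52). Lymphoid-primed cells (mean 166 CPM) and stem-gated cells (mean 155 CPM) differed from the cells in no gate (mean 171 CPM) by less than the test resolves, with log2 folds of -0.05 (SE 0.14) and -0.21 (SE 0.13).

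Gfi1 (ENSMUSG00000029275, chromosome 5, 107716657 to 107726036, minus strand) was highest in neutrophil-gated cells and had 2067 UMIs over all cells, so its sums carry a larger counting error than those of the other factors. In neutrophil-gated cells its level was 19.3 and 26.4 CPM in controls and 22.5 and 26.7 CPM in knockouts. The next type in order, lymphoid-primed cells, had 9.2 and 15.7 CPM in controls and 16.0 and 13.4 CPM in knockouts. The neutrophil gate lay above these by 0.91 on the log2 scale (SE 0.17, edgeR adjusted p = 6.3e-05) and above the cells in no gate by 1.25 (SE 0.11, edgeR adjusted p = 3.5e-11). Monocyte-DC-gated cells had 5.0 and 4.9 CPM in controls and 11.3 and 13.7 CPM in knockouts, from only 9, 2, 5 and 2 UMIs. The neutrophil gate exceeded them by 1.82 on the log2 scale (SE 0.28, edgeR adjusted p = 1.7e-05). Gfi1 therefore separated the myeloid gates, between which no difference of Spi1 was detected. With cells thinned to 2000 UMIs before gating, the difference from lymphoid-primed cells was no longer called (edgeR adjusted p = 0.62), nor was the megakaryocyte fold given below (edgeR adjusted p = 0.065).

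Gfi1 was near the limit of counting in the megakaryocyte and erythroid gates. The megakaryocyte sums had 4.5 CPM in control replicate 1, no UMI in control replicate 2, and 1.8 and 0.6 CPM in the knockouts. The sum with no UMI allows a level of up to 9.79 CPM. Erythroid sums lay between 1.4 and 3.1 CPM. The folds against the cells in no gate were -2.28 (SE 0.36, edgeR adjusted p = 1.2e-05) and -1.87 (SE 0.33, edgeR adjusted p = 3.9e-05), fitted to 9 and 12 UMIs.

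Runx1 (ENSMUSG00000022952, chromosome 16, 92601466 to 92826149, minus strand) was highest in basophil-mast-gated and megakaryocyte-gated cells, and no pair of neighbours in its order of types differed past the threshold. Basophil-mast-gated cells had 313 CPM in control replicate 1 and 235 CPM in knockout replicate 2, the libraries with enough of these cells. Megakaryocyte-gated cells had 229 and 196 CPM in controls and 178 and 203 CPM in knockouts. Both gates lay above the cells in no gate, which had 174, 159, 128 and 123 CPM, by 0.82 (SE 0.17, edgeR adjusted p = 0.0023) and 0.41 (SE 0.12, edgeR adjusted p = 0.017) on the log2 scale. The megakaryocyte call was lost when control replicate 1 (adjusted p = 0.064), knockout replicate 1 (adjusted p = 0.055) or knockout replicate 2 (adjusted p = 0.10) was left out in edgeR, and without the filter on low counts (adjusted p = 0.12). The basophil-mast call was lost without knockout replicate 2 (edgeR adjusted p = 0.24). Runx1 separated the megakaryocyte from the erythroid gate, where it was 115 and 123 CPM in controls and 92.5 and 77.6 CPM in knockouts. The erythroid gate was lower in each library, by 0.96 on the log2 scale (SE 0.14, edgeR adjusted p = 4.8e-06).

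The RefSeq promoter table for GRCm38.p6 held 2 start sites of Runx1. Its windows run from 250 bases before to 50 bases after a start, and 12 windows belonged to 5 of the 6 factors. The upstream start of Runx1, known as the distal promoter, is followed by a pair of copies of the letters that RUNX proteins bind, AACCACA, the first 28 bases after the start. The stretch is shown because it carries the binding letters of the factor's own family, on chr16:92826026-92826054, minus strand, with the copies in capitals.

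Runx1 upstream start: cataaacAACCACAgAACCACAagttggg

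These letters, searched on both strands, were in 5.27% of the 32851 windows and in 1 of the 12 windows of the factors. The PU.1 letters GAGGAAGT were in 3.2% of all windows and, among the factors, in 1 window of Satb1. The MYB letters CAACTG were in 13.7% of all windows and in 1 window each of Runx1 and Satb1. A match of letters is a description and not evidence that a factor was bound, which these data did not measure.

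Myb (ENSMUSG00000019982, chromosome 10, 21124935 to 21160984, minus strand) showed the opposite order on the same branch. Erythroid-gated cells had 345 and 457 CPM in controls and 429 and 381 CPM in knockouts. Megakaryocyte-gated cells had 195 and 219 CPM in controls and 220 and 215 CPM in knockouts. No megakaryocyte sum reached any erythroid sum, and the erythroid gate was higher by 1.00 on the log2 scale (SE 0.12, edgeR adjusted p = 7.6e-08). Against the cells in no gate, which had 266, 269, 252 and 249 CPM, Myb rose by 0.63 (SE 0.11, edgeR adjusted p = 2.2e-05) in the erythroid gate and by 0.32 (SE 0.10, edgeR adjusted p = 0.011) in the neutrophil gate. It fell by 0.37 (SE 0.11, edgeR adjusted p = 0.021) in the megakaryocyte gate, by 0.72 (SE 0.13, edgeR adjusted p = 7.7e-05) in the B gate and by 0.79 (SE 0.20, edgeR adjusted p = 0.0062) in the plasmacytoid-DC gate. The megakaryocyte fold was past the threshold in 7 of 10 alternatives and missed it without control replicate 1 (adjusted p = 0.18) or control replicate 2 (adjusted p = 0.089). The neutrophil call was lost without control replicate 1 (edgeR adjusted p = 0.051). The plasmacytoid-DC call was lost without knockout replicate 1 (log2 -0.68) and with thinned gates (log2 -0.46). Stem-gated cells, with 266, 267, 290 and 274 CPM, did not differ detectably from the cells in no gate (log2 0.02, SE 0.10).

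Ikzf1 (ENSMUSG00000018654, chromosome 11, 11685003 to 11772926, plus strand) was highest in lymphoid-primed and plasmacytoid-DC-gated cells and lowest in megakaryocyte-gated cells. The lymphoid-primed sums had 201 and 170 CPM in controls and 175 and 211 CPM in knockouts, all above the cells in no gate at 124, 100.03, 121 and 122 CPM. The rise was 0.69 on the log2 scale (SE 0.11, edgeR adjusted p = 5.6e-05). Plasmacytoid-DC-gated cells of the knockout libraries had 356 and 200.2 CPM (log2 0.97, SE 0.21, edgeR adjusted p = 0.0012). This call was lost without knockout replicate 1 (log2 0.53) and with thinned gates (log2 0.28). Megakaryocyte-gated cells had 64.9 and 45.7 CPM in controls and 75.6 and 66.3 CPM in knockouts, a fall of 0.94 on the log2 scale (SE 0.14, edgeR adjusted p = 4.8e-06).

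Erythroid-gated cells, by contrast, had 171 and 136 CPM of Ikzf1 in controls and 118 and 146 CPM in knockouts. They exceeded the megakaryocyte gate in each library, by 1.25 on the log2 scale (SE 0.15, edgeR adjusted p = 1.4e-07). Against the cells in no gate the erythroid fold of 0.31 (SE 0.12, edgeR adjusted p = 0.054) missed the threshold, which it passed in 6 of 10 alternatives, among them the one without knockout replicate 1 (edgeR adjusted p = 0.010). Neutrophil-gated cells had 73.0, 66.5, 85.1 and 94.5 CPM, which is a fall of 0.46 on the log2 scale (SE 0.11, edgeR adjusted p = 0.0012).

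Satb1 (ENSMUSG00000023927, chromosome 17, 51736187 to 51833290, minus strand) was highest in lymphoid-primed cells. Lymphoid-primed cells had 155 and 195 CPM in controls and 126 and 162 CPM in knockouts. Cells in no gate had 56.0, 74.1, 56.7 and 65.0 CPM, so the groups were apart by 1.33 on the log2 scale (SE 0.12, edgeR adjusted p = 5.8e-10). Monocyte-DC-gated cells, with 98.9, 136, 67.7 and 75.5 CPM, came next in order and lay below the lymphoid-primed cells by 0.65 (SE 0.17, edgeR adjusted p = 0.016) and above the cells in no gate by 0.68 (SE 0.17, edgeR adjusted p = 0.006). The latter call was lost without control replicate 1 (log2 0.52, edgeR adjusted p = 0.23). Satb1 fell by 0.99 (SE 0.12, edgeR adjusted p = 3.4e-07) in stem-gated cells, where it was 32.3, 46.0, 26.1 and 31.3 CPM, and it was the only factor of the 6 that passed the test there, where 3.69% of all genes did.

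Satb1 was low in the megakaryocyte and erythroid gates. It dropped by 2.65 (SE 0.25, edgeR adjusted p = 2.1e-10) in the megakaryocyte gate and by 2.49 (SE 0.24, edgeR adjusted p = 3e-10) in the erythroid gate, where single sums lay between 3.3 and 13.4 CPM. In neutrophil-gated cells it was 29.1, 27.5, 35.2 and 37.0 CPM, lower by 2.22 on the log2 scale than in lymphoid-primed cells (SE 0.14, edgeR adjusted p = 8.7e-15, tested as lymphoid-primed over neutrophil). B-gated cells had 10.2 CPM in control replicate 1, from 1 UMI in 21 cells, and 48.6 and 37.9 CPM in knockouts, from 40 and 102 UMIs. They lay below the lymphoid-primed cells by 1.88 (SE 0.20, edgeR adjusted p = 7.3e-09, tested as B over lymphoid-primed).

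Gate by gate, 5 of the 6 factors passed the test in the neutrophil gate, where 42.8% of all genes passed. Spi1, Gfi1 and Myb were higher (20.3% of all genes) and Ikzf1 and Satb1 lower (22.6%). In the megakaryocyte gate 6 of 6 passed against 14.9% of all genes, 1 higher (7.18%) and 5 lower (7.69%). In the erythroid gate 5 of 6 passed against 27%, 1 higher (11.6%) and 4 lower (15.4%). Spi1 and Satb1 were the 2 that passed in the monocyte-DC gate, both higher, against 7.65% of all genes (5.29% higher, 2.35% lower). Ikzf1 and Satb1 were the 2 that passed in the lymphoid-primed gate, both higher, against 6.82% (4.03% higher, 2.8% lower). In the B gate 3 of 6 passed, all lower, against 27.2% of all genes (14.7% higher, 12.6% lower). In the basophil-mast gate Runx1 was higher (1.67% of all genes) and Satb1 lower (0.266%), 2 of 6 against 1.94%, and in the plasmacytoid-DC gate 3 of 6 passed against 12.9%, 1 higher (7.1%) and 2 lower (5.82%). In the stem gate 1 of 6 passed, with 2.43% of all genes higher and 1.27% lower. The Satb1 calls in the B gate (log2 -0.55, edgeR adjusted p = 0.038) and the basophil-mast gate (log2 -1.30, edgeR adjusted p = 0.045) were both lost without control replicate 1 or knockout replicate 2.

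Between the paired gates, 4 of 6 factors differed between neutrophil-gated and monocyte-DC-gated cells, where 18.6% of all genes did. Gfi1 and Myb were higher in the neutrophil gate (9.88% of all genes) and Ikzf1 and Satb1 lower there (8.69%). Between the erythroid and the megakaryocyte gate 4 of 6 differed against 15.1%, with Myb and Ikzf1 higher in the erythroid gate (7.24%) and Runx1 and Spi1 lower there (7.9%). Between lymphoid-primed and neutrophil-gated cells 5 of 6 differed against 33.9%, with Ikzf1 and Satb1 higher in the lymphoid-primed cells (17.1%) and Spi1, Gfi1 and Myb lower there (16.8%). The calls of Spi1, Gfi1 and Myb were lost with thinned gates (log2 -0.52, -0.39 and -0.37). That of Myb was also lost with stricter gates (log2 -0.26, edgeR adjusted p = 0.20). In B-gated against lymphoid-primed cells 4 of 6 differed against 19.4%, all lower in the B gate (10.6% of all genes higher, 8.75% lower). Of these calls, that of Spi1 was lost without knockout replicate 2 (edgeR adjusted p = 0.10). That of Myb was lost without knockout replicate 1 (edgeR adjusted p = 0.13). The Spi1 difference of erythroid over megakaryocyte cells, -0.60 (SE 0.21, edgeR adjusted p = 0.046) was past the threshold in 5 of 10 alternatives, and leaving out control replicate 1 (adjusted p = 0.32), control replicate 2 (adjusted p = 0.15) or knockout replicate 1 (adjusted p = 0.084) ended the call.

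**Figure D2:**
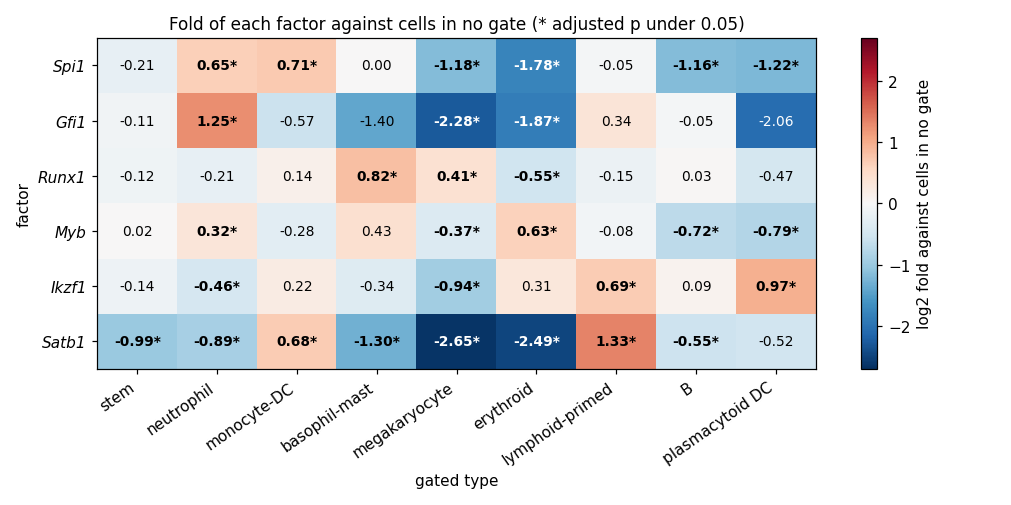
Log2 fold of each factor (rows) against the cells in no gate, for each gated type (columns), from the edgeR fit with library as a block. Stars mark adjusted p under 0.05 over all 11297 genes. Spi1, Gfi1 and Satb1 are lower in both the megakaryocyte and erythroid gates, whereas Runx1 and Myb change in opposite directions there.

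The genes most like each factor were named by the correlation of their log2 CPM, centred within library, over the 35 sums of 10 types, among 8029 genes with a mean of at least 10 CPM. The sums share libraries, depth and gates, so these values are descriptions. Spi1 was followed most closely by Tm6sf1 (r = 0.92), Ms4a6b (0.91), Ehd4 (0.90), Serpinb1a (0.89) and Glipr1 (0.88). Gfi1 was followed by Impa2 (0.79), Pglyrp1, a granule protein of neutrophils (0.77), Vav3 (0.75), Mgst1 (0.74) and Coprs (0.73). For Runx1 the likeness was weaker, with Ywhah (0.73), Fhod1 (0.72), Myh9, a myosin heavy chain abundant in platelets (0.70), Mff (0.70) and Btbd9 (0.69). Myb went with Prdx6 (0.90), Wdr12, a factor of ribosome assembly (0.87), Eprs (0.85), Metap2 (0.85) and Fam195a (0.84), and Ikzf1 with Klf3 (0.83), Susd6 (0.75), Irf2bp2 (0.75), Cat (0.73) and Fth1 (0.73). Satb1 went with Notch1 (0.88), the receptor that directs T lineage choice, Sgk3 (0.88), Pou2f2 (0.88), Flt3, the cytokine receptor of lymphoid-primed progenitors (0.87), and Cdk19 (0.87). Among the factors themselves the highest values were 0.64 for Ikzf1 with Satb1, 0.62 for Gfi1 with Satb1, 0.58 for Spi1 with Satb1 and 0.56 for Spi1 with Gfi1, and the lowest was -0.34 for Runx1 with Ikzf1.

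Partners and relatives of the factors gave a frame for these orders. Of 22 other lineage factors, all tested, 3 rose and 14 fell in the neutrophil gate, where 20.3% of all genes rose and 22.6% fell. Cebpe, which drives late granulocyte genes, rose by 5.22 on the log2 scale and Cebpa, the factor of the first granulocyte step, by 1.30, while the erythroid factor Gata1 fell by 2.83. In the megakaryocyte gate 7 rose and 5 fell (7.18% and 7.69% of all genes), with Gata1 at 2.95 and its cofactor Zfpm1 at 2.10. In the erythroid gate 6 rose and 10 fell (11.6% and 15.4% of all genes), with Gata1 at 3.58. Gfi1b, the erythroid and megakaryocytic relative of Gfi1, rose by 2.06 and 1.80 in these gates, in which Gfi1 fell. Spib, the relative of Spi1 in B cells and plasmacytoid dendritic cells, rose by 7.34 in the B gate and by 8.68 in the plasmacytoid-DC gate, in which Spi1 fell. Of 20 partners and paralogs, 16 were tested across types, and 2 rose and 3 fell in the erythroid gate (11.6% and 15.4% of all genes). Of the 8 genes in the list of PU.1-driven myeloid genes, 7 were tested. Of these, 4 rose in the neutrophil gate (20.3% of all genes) and 2 in the monocyte-DC gate (5.29%). In the neutrophil gate 2 fell (22.6% of all genes), Cd33 by 1.08 and Itgam, an integrin chain of mature myeloid cells, by 0.41. In the neutrophil and monocyte-DC gates Csf1r, the receptor for macrophage colony-stimulating factor, rose by 1.91 and 2.88. In the megakaryocyte gate 4 of the 7 fell (7.69% of all genes) and none rose. In the erythroid gate 5 fell (15.4%) and none rose. Itgam was at -1.85 and -2.73 in these gates.

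The second question was whether the factors differed between Nup358 knockout and control cells. Over all LSK cells the 6 levels differed between genotypes for Spi1 alone. Controls had 242 and 203 CPM of Spi1 and knockouts 134 and 133 CPM, so the groups were apart. Spi1 fell by 0.78 on the log2 scale (SE 0.15, edgeR adjusted p = 0.043), 1 of 6 factors called where 3.44% of 13779 genes tested were called, 1.37% higher and 2.07% lower. The call did not hold when knockout replicate 1 (adjusted p = 0.28) or knockout replicate 2 (adjusted p = 0.34) was left out in edgeR. With all deposited barcodes kept, the fold was -0.70 on the log2 scale (edgeR adjusted p = 0.046).

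The other factors moved less. Gfi1 had 13.5 and 15.7 CPM in controls and 11.2 and 11.3 CPM in knockouts (log2 -0.41, SE 0.16, edgeR adjusted p = 0.21). Runx1 had 151 and 140 CPM against 123 and 127 CPM (log2 -0.26, SE 0.14, edgeR adjusted p = 0.33), and Ikzf1 100.1 and 98.4 CPM against 115 and 120 CPM (log2 0.20, SE 0.14, edgeR adjusted p = 0.44). For these 3 genes the knockout libraries lay outside the range of the controls without passing the test. With Spi1, the groups did not overlap for 4 of the 6 factors, against 54.4% of all genes tested, so that this count is near the background. Myb had 275 and 268 CPM against 278 and 261 CPM (log2 -0.05, SE 0.14, edgeR adjusted p = 0.88), and Satb1 41.5 and 61.4 CPM against 41.5 and 51.5 CPM (log2 -0.19, SE 0.23, edgeR adjusted p = 0.68). In both the groups overlapped. Without control replicate 1, Gfi1 was called as well (log2 -0.54, edgeR adjusted p = 0.031).

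The mix of gates differed between the genotypes. Among control cells 33.1% and 16.7% were neutrophil-gated (95% exact binomial intervals 32.1 to 34.2% and 14.6 to 18.9%), and among knockout cells 7.74% and 3.21% (6.47 to 9.17% and 2.65 to 3.86%). B-gated cells were 0.268% and 0.833% of control cells and 8.06% and 9.67% of knockout cells. In an exact permutation test of the 4 libraries the smallest p that 2 against 2 allows is 0.33, and both differences gave it (p = 0.33, two-sided). In sums over all LSK cells, fewer cells of a type and less RNA per cell cannot be told apart.

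A sum over all cells depends on this mix. Left to its own mix over the 7 types that each library held in number, Spi1 in the knockout was 0.613 of the control mean. With every library given the same mean mix of types it was 0.722, and the knockout libraries, at 146 and 157 CPM, still lay below the controls at 223 and 197 CPM. Gfi1 behaved otherwise, with a ratio of 0.778 at the libraries' own mix and 1.05 at the fixed mix, where the controls at 10.98 and 14.9 CPM and the knockouts at 12.8 and 14.5 CPM overlapped. Runx1 stayed lower in the knockout at the fixed mix, at a ratio of 0.812, with controls at 161 and 142 CPM and knockouts at 123 and 122 CPM. Ikzf1 moved from 1.18 to 1.07 and then overlapped, and Satb1 from 0.910 to 0.899, overlapping at both mixes. Myb moved from 1.01 to 1.03, where its groups no longer overlapped, with controls at 269 and 270 CPM and knockouts at 284 and 272 CPM. How many of all genes lay apart at the fixed mix was not counted, so a gap there has no background beside it. The fixed mix is a description that carries no test.

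**Figure D3:**
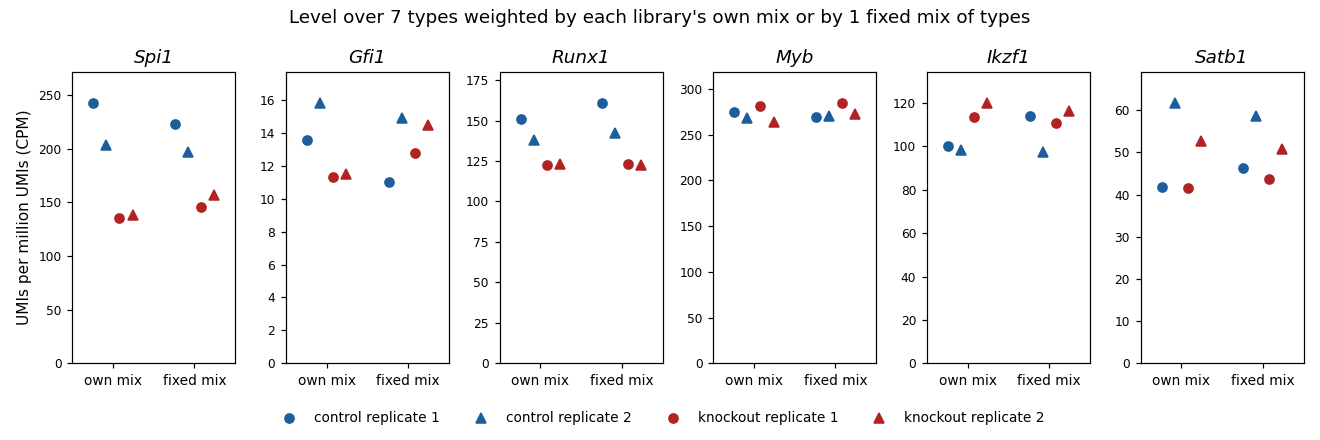
Level of each factor (CPM, linear axis from 0) per library over the 7 types found in number in all 4 libraries, weighted by the library's own share of UMIs in each type (left in each panel) or by the mean share over the 4 libraries (right). The gap in Spi1 narrows but stays, the gap in Gfi1 closes, and the gap in Runx1 stays. Myb points overlap at the own mix and lie narrowly apart at the fixed mix.

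Leaving out whole gates gave related values. Without neutrophil-gated cells, Spi1 over the remaining LSK cells was 202 and 173 CPM in controls and 125 and 129 CPM in knockouts (log2 -0.54, edgeR adjusted p = 0.067), and without B-gated and plasmacytoid-DC-gated cells the fold was -0.73 (edgeR adjusted p = 0.056). The groups stayed apart in both cases, and both adjusted p-values missed the threshold. Gfi1 without neutrophil-gated cells was 8.06 and 11.5 CPM in controls and 9.91 and 10.5 CPM in knockouts.

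Within the 7 types that had at least 20 cells in all 4 libraries, none of the 39 tests of a factor passed (edgeR, adjusted p), and 7 had an unadjusted p under 0.05. DESeq2 called 0 as well. The background was 7.38% of genes called in the cells in no gate, 13.2% in stem-gated, 2.76% in neutrophil-gated, 0.53% in lymphoid-primed, 0.674% in erythroid-gated, 0.347% in megakaryocyte-gated and 0.478% in monocyte-DC-gated cells. Gfi1 was too low to be tested in the megakaryocyte, erythroid and monocyte-DC gates. The power of these tests was limited. On simulated sums, a log2 fold of 1 was found for 9.57% of changed genes in the monocyte-DC gate, the lowest share. The highest share was 74.2%, in stem-gated cells. The changed genes were drawn from all genes tested.

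Spi1 was lower in both knockout libraries than in both controls in 5 of the 7 types, none of which passed the test. The share of all genes tested that had this arrangement was 32.2% in the cells in no gate, 32.9% in stem-gated, 23.9% in neutrophil-gated, 20.2% in lymphoid-primed, 20.1% in megakaryocyte-gated, 17.7% in erythroid-gated and 16.3% in monocyte-DC-gated cells. In the cells in no gate it was 212 and 189 CPM in controls and 137 and 147 CPM in knockouts (log2 -0.45, SE 0.15, edgeR adjusted p = 0.092). In stem-gated cells it was 208 and 160 CPM against 123 and 129 CPM (log2 -0.51, SE 0.15, edgeR adjusted p = 0.06). The same arrangement held in the neutrophil gate (log2 -0.45, SE 0.16, edgeR adjusted p = 0.18), the lymphoid-primed gate, with 217 and 179 CPM against 125 and 143 CPM (log2 -0.59, SE 0.19, edgeR adjusted p = 0.17), and the megakaryocyte gate (log2 -0.48, SE 0.23, edgeR adjusted p = 0.52). In the monocyte-DC gate (log2 -0.11, SE 0.32) and the erythroid gate (log2 0.21, SE 0.34) the groups overlapped. In each of these 7 types but the neutrophil gate, the neutrophil marker list summed highest in control replicate 1. In erythroid-gated cells it was 713 and 121 CPM in controls and 122 and 125 CPM in knockouts. In lymphoid-primed cells it was 1137 and 590 CPM against 512 and 483 CPM, and in stem-gated cells 1133 and 508 CPM against 609 and 380 CPM. The part of this RNA in the Spi1 values was not tested. The level of the stem markers moved with the genotype as well. Summed over the stem list it was 2574 and 2859 CPM in stem-gated control cells and 1245 and 1295 CPM in stem-gated knockout cells, and in the cells in no gate 1839 and 2121 CPM against 1004 and 996 CPM. Stem-gated cells were 8.39% and 33.5% of control cells and 34.99% and 30.6% of knockout cells, and with cells thinned to 2000 UMIs 2.18% and 4.11% against 1.40% and 1.46%. The part of these differences in the genotype values of stem-gated cells, here and in the paragraphs that follow, was not tested.

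Most calls within types depended on leaving out a single control library. Spi1 in stem-gated cells was also called with all libraries kept, under the crossed replicate block given below. Without control replicate 1, Spi1 was called lower in stem-gated cells (log2 -0.36, edgeR adjusted p = 0.038) and in cells in no gate (log2 -0.44, edgeR adjusted p = 0.036). Without control replicate 2 the values were -0.62 (edgeR adjusted p = 0.00024) and -0.47 (edgeR adjusted p = 0.019). With either control left out, the remaining control is assumed to vary as the knockouts do, and the knockouts were close to each other.

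Runx1 had a like arrangement in 3 of the 7 types, to be read against the same shares of all genes. In stem-gated cells it was 170 and 154 CPM in controls and 119 and 118 CPM in knockouts (log2 -0.41, SE 0.14, edgeR adjusted p = 0.078). In cells in no gate it was 174 and 159 CPM against 128 and 123 CPM (log2 -0.35, SE 0.14, edgeR adjusted p = 0.16), and in the erythroid gate 115 and 123 CPM against 92.5 and 77.6 CPM (log2 -0.54, SE 0.24, edgeR adjusted p = 0.56). The groups overlapped in the other 4 types, and in the neutrophil gate the fold was 0.03 (SE 0.16). Without control replicate 1 or 2, Runx1 in stem-gated cells was called lower (edgeR adjusted p = 0.025 and 0.019).

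Satb1, like Runx1, was lower in both knockouts than in both controls in 3 of the 7 types, to be read against the same shares of all genes. In stem-gated cells Satb1 was 32.3 and 46.0 CPM in controls and 26.1 and 31.3 CPM in knockouts (log2 -0.43, SE 0.21, edgeR adjusted p = 0.20). The Satb1 fold was below 0 in each type but the neutrophil gate (log2 0.33, SE 0.19). Myb and Ikzf1 had folds on both sides of 0. Gfi1 had folds of 0.02 to 0.14 in the types where it was tested. Across Satb1, Myb, Ikzf1 and Gfi1, the folds between genotypes within types ran from -0.75 to 0.34. The lowest was that of Satb1 in the monocyte-DC gate, with 98.9 and 136 CPM in controls and 67.7 and 75.5 CPM in knockouts. The highest was that of Ikzf1 in the neutrophil gate. Ikzf1 there was 73.0 and 66.5 CPM in controls and 85.1 and 94.5 CPM in knockouts. In that gate Myb was also higher in both knockouts, at 321 and 314 CPM against 285 and 281 CPM, and Satb1 at 35.2 and 37.0 CPM against 29.1 and 27.5 CPM. How many of all genes lay higher in both knockouts in this gate was not counted, so these arrangements have no background beside them. The neutrophil gate held cells of unlike marker level in the 2 genotypes. The sum over its 8 markers was 13623 and 14953 CPM in controls and 5291 and 5480 CPM in knockouts, and the part of this difference in the values of the factors was not tested.

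**Figure D4:**
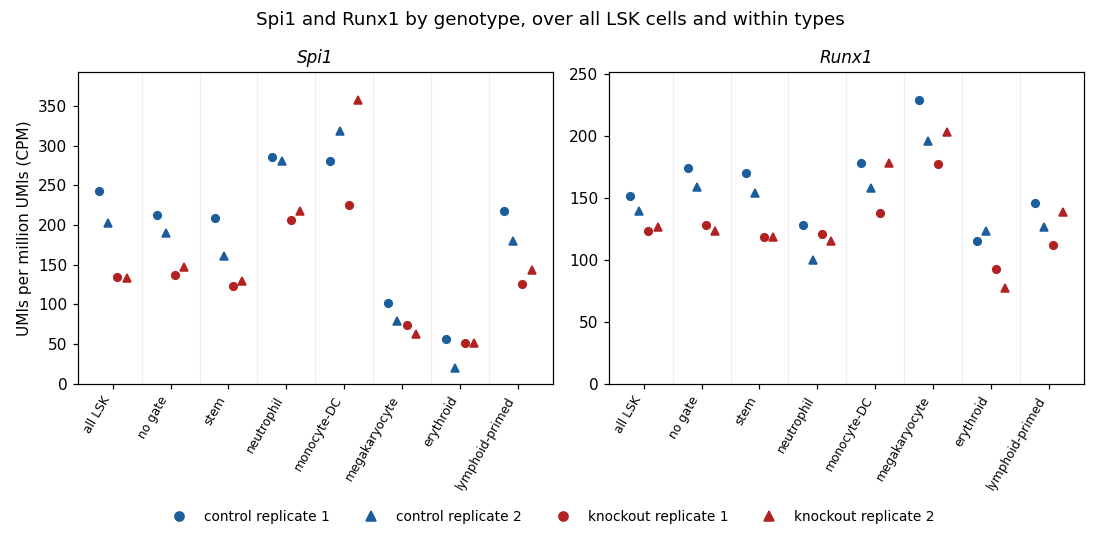
Spi1 and Runx1 levels (CPM, linear axis from 0) per library over all LSK cells and within each of the 7 types, controls in blue and knockouts in red. Spi1 points of the knockouts lie below those of the controls in 5 of 7 types and Runx1 points in 3 of 7, where 16.3% to 32.9% of all genes tested in a type lie so.

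Whether the genotype effect differed between types was tested against the effect in the cells in no gate. None of 36 tests of a factor passed (edgeR, smallest adjusted p = 0.083, for Runx1 in the neutrophil gate, log2 difference 0.43, SE 0.13), and 6 had an unadjusted p under 0.05. Among all genes 2.15% passed for the neutrophil gate, 1.23% for the erythroid, 1.02% for the monocyte-DC, 0.0556% for the megakaryocyte, 0.0463% for the lymphoid-primed and 0.00927% for the stem gate.

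Genes known to be driven by PU.1 in myeloid cells were lower in knockouts where they passed. Over all LSK cells 2 of the 8 listed genes fell and none rose, where 2.07% of all genes fell and 1.37% rose. All 8 had folds below 0 (median -0.63, against -0.01 over all genes tested). The list was chosen with earlier results of these data known, so its counts and direction are descriptions. The neutrophil gate, in which 4 of the 7 genes tested across types rose, held a smaller share of the knockout cells. The part of this mix in the folds over all LSK cells was not tested. Csf1r was 12.5 and 10.4 CPM in controls and 1.6 and 0.9 CPM in knockouts (log2 -3.28, SE 0.32, edgeR adjusted p = 0.0067). Csf2ra, a subunit of the GM-CSF receptor, was 43.7 and 40.1 CPM against 19.6 and 17.8 CPM (log2 -1.20, SE 0.14, edgeR adjusted p = 0.011). Csf2ra fell by a like amount in the cells in no gate (log2 -0.97, SE 0.16), in stem-gated cells (log2 -0.99, SE 0.15) and in the neutrophil gate (log2 -1.02, SE 0.21), each past the threshold in edgeR. The calls in the neutrophil gate and in cells in no gate were lost without knockout replicate 1 or 2, and that in stem-gated cells without knockout replicate 2. The neutrophil call was also lost with all deposited barcodes kept (edgeR adjusted p = 0.059), and the stem call with thinned gates (edgeR adjusted p = 0.33). In the neutrophil gate Csf1r was 19.3 and 24.3 CPM in controls and 2.6 and 2.5 CPM in knockouts (log2 -3.10, SE 0.34, edgeR adjusted p = 0.0015). The lower marker sum of the knockout cells in this gate, given above, moved with these values, and its part in them was not tested. Csf3r, the receptor for G-CSF, fell by 0.61 in stem-gated cells (SE 0.15, edgeR adjusted p = 0.037), a call lost in 6 of its alternatives.

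**Figure D5:**
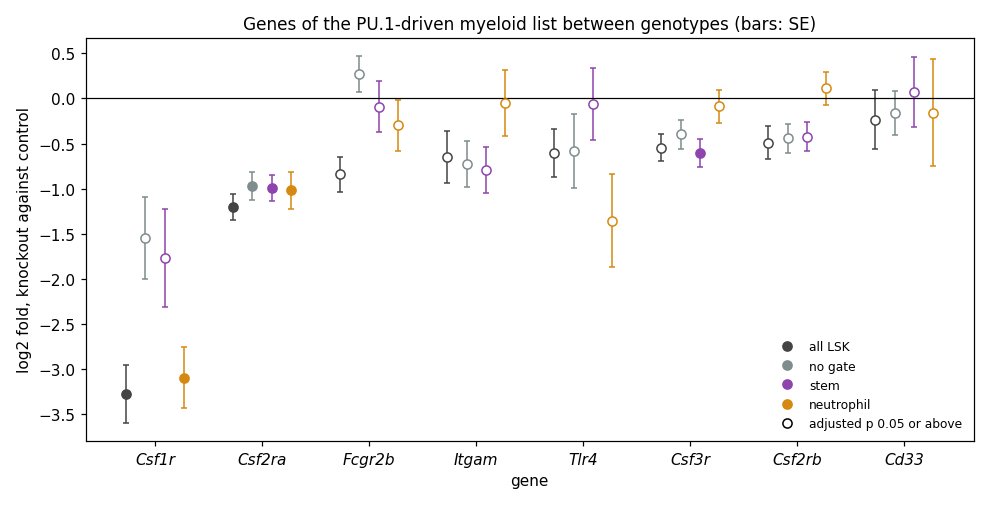
Log2 fold of knockout against control for the 8 genes of the PU.1-driven myeloid list, over all LSK cells and within cells in no gate, stem-gated and neutrophil-gated cells. Points are edgeR estimates with their SE, filled where the adjusted p is under 0.05. Csf1r and Csf2ra are lower over all LSK cells and in the neutrophil gate.

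Of the 22 other lineage factors, 2 fell and 3 rose over all LSK cells (median log2 fold 0.11), against 2.07% and 1.37% of all genes. Cebpe fell by 3.42 and Irf8, the factor of monocytes and dendritic cells, by 1.39, whereas the lymphoid factors Irf4, Ebf1 and Pax5 rose by 3.46, 4.30 and 5.38. Ebf1 was 266 to 830 CPM in the B gate and at most 1.0 CPM in cells in no gate. With all deposited barcodes Irf4 (edgeR adjusted p = 0.051), Ebf1 (0.088) and Pax5 (0.087) missed the threshold. Cebpe (log2 -0.99, edgeR adjusted p = 0.17) and Irf8 (log2 -0.63, edgeR adjusted p = 0.10) missed it over LSK cells without the neutrophil gate. Within the neutrophil gate Irf8 was 232 and 212 CPM in controls and 39.2 and 38.6 CPM in knockouts (log2 -2.53, SE 0.17, edgeR adjusted p = 7.1e-05). Cebpe fell there by 1.41 (SE 0.28, edgeR adjusted p = 0.024). The Cebpe call was lost without knockout replicate 1, and with all deposited barcodes kept (edgeR adjusted p = 0.073). The neutrophil markers of this gate summed to 13623 and 14953 CPM in controls against 5291 and 5480 CPM in knockouts, and their part in the Irf8 and Cebpe values was not tested. Mef2c, which favours lymphoid over myeloid fate, fell by 0.66 in the cells in no gate and by 0.68 in stem-gated cells. The calls of Mef2c, and of Irf8 in the cells in no gate (a fall of 0.82), were lost when either knockout replicate was left out. That Irf8 call was also lost with all deposited barcodes kept (edgeR adjusted p = 0.059). Tcf7, a T lineage factor, fell by 3.48 in lymphoid-primed cells, from 19.5 and 19.1 CPM to 2.9 and 1.1 CPM.

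Of the 20 partners and paralogs, 1 rose and none fell over all LSK cells (median log2 fold 0.17), against 1.37% and 2.07% of all genes. This was Spib, which rose by 5.05 and missed the threshold without B-gated and plasmacytoid-DC-gated cells (edgeR adjusted p = 0.052). Mybl2, the relative of Myb that acts in the cell cycle, rose by 0.97 in the cells in no gate and by 1.30 in stem-gated cells, in which Myb itself did not pass. The former call was lost without either knockout replicate. Gfi1b fell by 1.66 in the erythroid gate (SE 0.30, edgeR adjusted p = 0.025), a call lost without control replicate 1 or knockout replicate 2 and in DESeq2. Ikzf4 fell by 1.56 in stem-gated cells from levels of 4.0 and 4.1 CPM, a call lost without either knockout replicate. The corepressor and coactivator genes of the list (Kdm1a, Rcor1, Hdac1, Hdac2, Chd4, Crebbp and Ep300) were not called between genotypes over all LSK cells or within any of the 7 types.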

How the data were processed

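LSK cells of 2 control and 2 knockout libraries were sequenced with 10x 3′ chemistry version 3.1. The deposited values are whole UMI counts per gene and barcode, which the authors made with Cell Ranger 3.1 (per the submitters' processing notes) on the mouse genome, without normalization. Barcodes with at least 200 genes and at most 10% mitochondrial UMIs passed (24973 of 25242), and barcodes whose sequence had at least 3 times the UMIs in another library were removed. Counts were summed per library and gated type (at least 20 cells). The members and gene lists were chosen with earlier results of these data known, and the gate thresholds were set after seeing the data.

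Sums were tested with edgeR 4.0.16 (R 4.3.3), TMM scaling and the quasi-likelihood test, with library and type as terms across types and genotype alone between genotypes. P-values were adjusted by the Benjamini-Hochberg method over all genes tested and called at 0.05. CPM values are not TMM-scaled and folds are. The named genes were the 6 members, the 5 genes most alike to each, every listed gene that passed between genotypes, and among listed genes across types the 2 largest rises and falls per list and type that passed, of which some are given. DESeq2 1.42.0 was an alternative. The fitting code was tested on simulated data. The study states that each library was made from a pool of 3 mice, which the labels do not give. Between genotypes, p-values measure the spread between pools. Tests with library as a term remove the level of each pool, so their p-values measure how types vary within libraries. In the tests across types this includes any genotype effect that differs between types. Intervals and floors cover counting error only. Positions are those of GRCm38. Annotated genes on the opposite strand overlap 5 members. On the same strand 5 annotated genes overlap Satb1, and 0 of these are among the genes counted.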

Additional observations from a re-analysis of the deposited data

Results flagged for a closer look

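None of the 6 factors passed the test of a genotype effect that differs between a gated type and the cells in no gate. For 5 genes of the lists it differed, by the edgeR interaction test adjusted over all genes. Over all genes 2.15% passed for the neutrophil gate and 1.23% for the erythroid gate. Irf8 had a difference of -1.64 on the log2 scale in the neutrophil gate (SE 0.45, edgeR adjusted p = 0.04996), so that its fall in the knockout was larger there than in the cells in no gate. Lmo2, a partner of TAL1, had a difference of 0.63 in the neutrophil gate (SE 0.15, edgeR adjusted p = 0.019). Zfpm1, the cofactor of GATA1, had a difference of 0.82 in the neutrophil gate (SE 0.21, edgeR adjusted p = 0.033). Csf2rb, the shared beta chain of the GM-CSF, IL-3 and IL-5 receptors, had a difference of 0.55 in the neutrophil gate (SE 0.15, edgeR adjusted p = 0.042). Ikzf2, a relative of Ikzf1, had a difference of 1.19 in the erythroid gate (SE 0.21, edgeR adjusted p = 0.0014). The neutrophil gate held cells of unlike marker level in the 2 genotypes, as given above. The part of this in its differences was not tested. No alternative was run for the interaction test, so how these calls depend on the processing is not known.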

How the results depend on the processing

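All 6 factors differed across types under every alternative run. Over all LSK cells 1 factor was called between genotypes, and leaving out 1 library gave 0 to 2. Leaving out B-gated and plasmacytoid-DC-gated cells, or neutrophil-gated cells, both chosen after seeing the data, gave 0. Within types 0 were called, and leaving out 1 library gave 0 to 4, with 4 without control replicate 1 and 3 without control replicate 2. The neutrophil-gated share differed by -19.4 percentage points, by -15.9 with all deposited barcodes and by -19.0 with thinned cells.

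With the replicate number as a block, 1 factor was called over all LSK cells and 0 within types. Same-numbered libraries had correlations of -0.13 (erythroid) to 0.089 (monocyte-DC) in their deviations. Each value rests on 1 difference per genotype, so it cannot decide whether same-numbered libraries shared a batch. A crossed replicate block, chosen after seeing the data, called 1 within types, which was Spi1 in stem-gated cells (log2 -0.50, edgeR adjusted p = 0.029). For all genes over LSK cells the block called 1257 and the crossed block 1735, against 474 without a block.

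Single folds between genotypes were followed through the alternatives for all 6 factors over LSK cells and for Spi1 and Runx1 within types. Satb1 in the monocyte-DC gate and Ikzf1 in the neutrophil gate were followed too, and the other folds within types were not. Among the folds followed, directions turned without neutrophil-gated cells for Gfi1 (0.0967) and Myb (0.0301) over LSK cells. They also turned with thinned gates for Spi1 in the erythroid gate (-0.19), and with stricter gates for Runx1 in the lymphoid-primed gate (0.0330). The thinned erythroid gate had 8 cells in knockout replicate 1 and the stricter lymphoid-primed gate 19 in control replicate 1, so each of these fits dropped that library. With 1 library left out the folds ran from -0.47 to 0.15 for Satb1 over LSK cells, from -0.0576 to 0.15 for Runx1 in the neutrophil gate, from -0.49 to 0.22 for Spi1 and -0.37 to 0.0506 for Runx1 in the monocyte-DC gate, from -0.0722 to 1.20 for Spi1 in the erythroid gate, and from -0.31 to 0.00772 for Runx1 in the lymphoid-primed gate. None of these folds was called as first given. Among list genes across types, Ikzf3 in the lymphoid-primed gate turned to -4.17 with thinned and -5.78 with stricter gates, Irf4 there to -5.15 with thinned gates, and Notch1 in the stem gate to 0.039 with thinned gates. The cause was not tested. Thinned gates left too few cells for a genotype fit in the megakaryocyte and lymphoid-primed gates.

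Counts over all genes in LSK cells moved from 474 to 1933 without the filter on low counts, 946 in DESeq2, 747 without neutrophil-gated cells, and 372 to 2890 with 1 library left out. In stem-gated cells 1567 became 2824 without the filter, 313 with thinned gates and 220 to 4064 with 1 library left out. In cells in no gate 913 became 2045 without the filter, 1676 with the crossed block and 43 to 2995 with 1 library left out. In the neutrophil gate 284 became 874, 646 with the block, 1119 with the crossed block, and 113 to 962. In the erythroid gate 55 became 220 without the filter, in the lymphoid-primed gate 47 became 392, in the megakaryocyte gate 29 became 124 and in the monocyte-DC gate 27 became 135. With stricter gates they became 36, 0, 185 and 75, the last 3 without a library that had under 20 cells, and with 1 library left out they ran from 76 to 212, 68 to 823, 23 to 228 and 54 to 152. With 71 plasmacytoid-DC-gated and 99 basophil-mast-gated cells, and 9 to 18 UMIs of Gfi1 in the megakaryocyte, erythroid and monocyte-DC gates, depth limits these values.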
